A study of Triticum aestivum with 12 samples.

Results

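A set of 16 transcripts was high in 14-day grains of the wheat genotype IITR26 and near the level of the genotype WL711 in 28-day grains. It was drawn from 61179 probe sets of the Affymetrix GeneChip Wheat Genome Array, in which a probe set is a group of short probes for a single transcript or a few like ones. A member had a log2 value at least 2 higher in IITR26 than in WL711 at 14 days after anthesis (DAA), with every IITR26 array above every WL711 array, and a difference between -1 and 1 at 28 DAA. In addition, its mean in IITR26 was at least 2 lower at 28 DAA than at 14 DAA, and its mean in WL711 rose by less than 1 over the same time. These 4 differences chose the members, so they are given below as a description and without a test.

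IITR26 is a wheat genotype rich in grain minerals and WL711 one that is poor in them, and both were grown in the field without any treatment. Grains were taken from the ears of 3 marked plants per genotype, and each RNA sample came from 3 whole grains. The 4 groups were IITR26 at 14 DAA, WL711 at 14 DAA, IITR26 at 28 DAA and WL711 at 28 DAA, with 3 arrays in each and 12 arrays in all. The study calls the 3 samples biological replicates, and which plants they came from is not given in the sources used here. A whole grain holds endosperm, aleurone, embryo and maternal pericarp together, so fewer cells of a type and less RNA per cell cannot be told apart.

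The deposited values are log2 values after robust multi-array averaging (RMA), and each probe set was shifted so that its median over the 12 arrays is 0. A value of 3 therefore means a signal 3 log2 units above that probe set's own middle array. It does not say how bright the probe set was, and values cannot be compared between probe sets as levels. Whether a transcript was above background, or a marker of grain tissue was present at all, cannot be read from such values.

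Between these stages a wheat grain passes from the filling of the endosperm with starch and protein towards ripening and drying. Walls of the young endosperm first form with callose, a glucan that callose synthases (glucan synthase-like proteins) lay down at new walls and plasmodesmata, and later gain arabinoxylan, the main wall polysaccharide of wheat endosperm. Alpha-L-arabinofuranosidases release arabinose side chains from arabinoxylan, VAMP proteins are the SNAREs that let transport vesicles fuse with their target membrane, and amino acid permeases carry amino acids across membranes into cells.

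Of the 16 members, 8 had a putative function in the study's own annotation, 1 of them as a hypothetical protein, and 8 had none. The platform annotation named a gene for 0 of the 16. An x, s or a before the end of a probe set's name marks one that can bind several transcripts, and this held for 3, 1 and 1 members, while 11 carried no such mark. Their 14 DAA differences ran from 2.01 to 4.46 with a median of 2.69, which is a 4.03- to 22.0-fold ratio on the linear scale. Over all probe sets the median difference was 0.0098. At 28 DAA the differences of the members ran from -0.93 to 0.95, with 8 above 0 and 8 below. The change in IITR26, 28 DAA minus 14 DAA, ran from -8.32 to -2.07 with a median of -2.61, and that in WL711 ran from -3.83 to 0.64 with a median of 0.13.

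**Figure D1:**
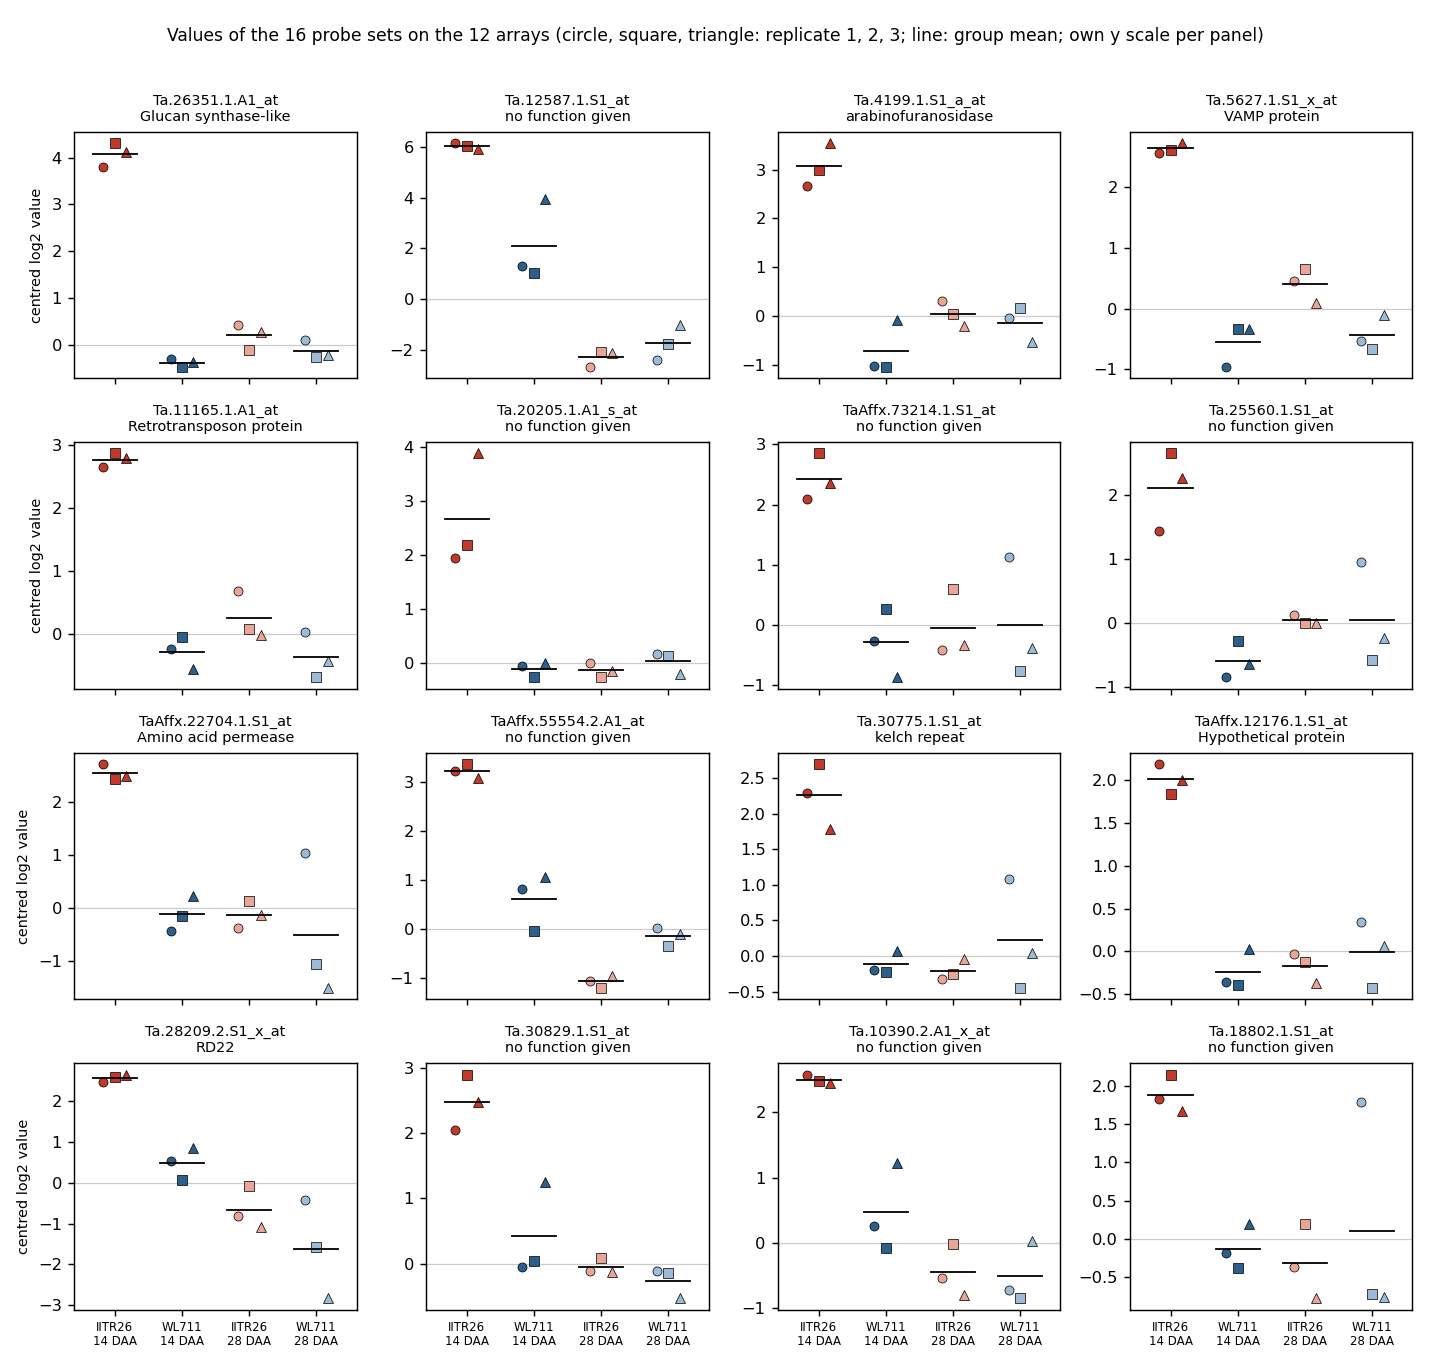
Centred log2 value (y axis, own scale for each panel) of the 16 members on each array, with IITR26 in red and WL711 in blue, 14 DAA in dark and 28 DAA in light shades. Marks are replicates 1 to 3 and lines are group means. In 15 of the 16 panels all 3 IITR26 arrays at 14 DAA lie above the other 9 arrays, and in the last, Ta.18802.1.S1_at, 1 WL711 array at 28 DAA stands at 1.78. The choice of members used these values and no share over all probe sets is given, so nothing is read from this count.

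The highest difference belonged to the glucan synthase-like probe set Ta.26351.1.A1_at, whose name is that of the callose synthase family. Its values at 14 DAA were 3.81, 4.31 and 4.13 in IITR26, against -0.30, -0.46 and -0.36 in WL711. At 28 DAA they were 0.44, -0.10 and 0.29 in IITR26, against 0.10, -0.26 and -0.21 in WL711. The 14 DAA groups were 4.10 apart at their nearest arrays, whereas the 28 DAA groups overlapped. The means at 14 DAA were 4.08 ± 0.26 in IITR26 and -0.37 ± 0.083 in WL711 (SD, n = 3 each), a difference of 4.46 or 22.0-fold, and the other 9 arrays together spanned only 0.90.

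The alpha-L-arabinofuranosidase probe set Ta.4199.1.S1_a_at had values of 2.67, 2.98 and 3.55 in IITR26 at 14 DAA, against -1.03, -1.05 and -0.087 in WL711. At 28 DAA it had 0.31, 0.035 and -0.22 in IITR26, against -0.035, 0.16 and -0.54 in WL711. All 3 IITR26 arrays at 14 DAA stood at least 2.35 above any other array, and the 28 DAA groups overlapped. The 14 DAA difference was 3.79, that at 28 DAA was 0.18, and the change was -3.02 in IITR26 and 0.58 in WL711.

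The VAMP protein probe set Ta.5627.1.S1_x_at was even across replicates in IITR26 at 14 DAA, with 2.57, 2.62 and 2.73, against -0.96, -0.34 and -0.34 in WL711. Its 28 DAA values were 0.46, 0.65 and 0.097 in IITR26, against -0.53, -0.66 and -0.097 in WL711. The genotypes did not overlap at either stage, so the difference shrank to 0.83 at 28 DAA, against 3.19 at 14 DAA, without closing. Together with TaAffx.55554.2.A1_at it is one of the 2 members whose 28 DAA groups were apart, a count given without a share over all probe sets.

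The amino acid permease probe set TaAffx.22704.1.S1_at had 2.73, 2.45 and 2.49 in IITR26 at 14 DAA, against -0.44, -0.15 and 0.23 in WL711. At 28 DAA it had -0.38, 0.14 and -0.14 in IITR26, against 1.03, -1.06 and -1.51 in WL711. Replicate 1 of WL711 at 28 DAA stood over 2 log2 units above its 2 fellow arrays here. The mean difference at 28 DAA was 0.39 over all 3 WL711 arrays, and without that array it was 1.16, outside the bound of 1.

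The BURP domain protein RD22, Ta.28209.2.S1_x_at, belongs to a family known from Arabidopsis for its response to drought and abscisic acid (ABA). It had 2.45, 2.58 and 2.65 in IITR26 at 14 DAA, against 0.54, 0.074 and 0.86 in WL711, and the groups were 1.59 apart at their nearest arrays. At 28 DAA it had -0.82, -0.074 and -1.10 in IITR26, against -0.44, -1.58 and -2.83 in WL711, where the groups overlapped. Its mean was lower at 28 DAA than at 14 DAA in both genotypes, by a change of -3.22 in IITR26 and -2.11 in WL711, so RD22 did not follow a course of IITR26 alone.

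The kelch repeat protein Ta.30775.1.S1_at, whose repeats fold into a propeller that binds other proteins, had 2.30, 2.70 and 1.78 in IITR26 at 14 DAA, against -0.20, -0.22 and 0.076 in WL711. At 28 DAA its values were -0.32, -0.26 and -0.037 in IITR26, against 1.08, -0.45 and 0.037 in WL711. The 14 DAA groups were 1.71 apart, and at 28 DAA replicate 1 of WL711 was again the high array. The retrotransposon protein Ta.11165.1.A1_at had 2.65, 2.87 and 2.79 in IITR26 at 14 DAA, against -0.25, -0.056 and -0.56 in WL711, with differences of 3.06 at 14 DAA and 0.61 at 28 DAA. The hypothetical protein TaAffx.12176.1.S1_at had 2.19, 1.84 and 1.996 in IITR26 at 14 DAA, against -0.35, -0.40 and 0.031 in WL711, and every IITR26 array there lay at least 1.497 above the other 9 arrays.

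Among the members with no stated function, Ta.12587.1.S1_at stood apart in size. Its values at 14 DAA were 6.15, 6.02 and 5.91 in IITR26, against 1.31, 1.02 and 3.96 in WL711. At 28 DAA they were -2.66, -2.08 and -2.12 in IITR26, against -2.40, -1.78 and -1.02 in WL711. The change was -8.32 in IITR26, the lowest of all 61179 probe sets in that comparison, and -3.83 in WL711. This transcript was thus lower at 28 DAA in both genotypes, and the WL711 replicates at 14 DAA differed among themselves by more (SD 1.62, n = 3) than those of any other member.

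The other unnamed members were smaller. TaAffx.55554.2.A1_at had 3.22, 3.37 and 3.09 in IITR26 at 14 DAA, against 0.81, -0.028 and 1.06 in WL711. Its 28 DAA values were -1.06, -1.20 and -0.95 in IITR26, against 0.028, -0.34 and -0.097 in WL711. The order of the genotypes was turned between the stages, IITR26 being higher by 2.61 at 14 DAA and lower at 28 DAA, with a difference of -0.93 and no overlap at either stage.

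In Ta.20205.1.A1_s_at the height of the 14 DAA peak rested on 1 array, with 1.95, 2.18 and 3.88 in IITR26, against -0.048, -0.26 and -0.0058 in WL711. The other 9 arrays of this probe set spanned 0.43, the narrowest range of any member. TaAffx.73214.1.S1_at had 2.09, 2.85 and 2.35 in IITR26 at 14 DAA, against -0.27, 0.27 and -0.87 in WL711. Ta.25560.1.S1_at had 1.43, 2.64 and 2.26 in IITR26 at 14 DAA, against -0.85, -0.28 and -0.65 in WL711. Neither pair of 14 DAA groups overlapped, and Ta.25560.1.S1_at had the most even genotype means at 28 DAA, with a difference of -0.00030. Its WL711 arrays at 28 DAA were uneven, with 0.95, -0.58 and -0.24, against 0.13, 0.0045 and -0.0045 in IITR26.

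The last 3 members lay close to the bound of 2. Ta.30829.1.S1_at had 2.04, 2.90 and 2.48 in IITR26 at 14 DAA, against -0.042, 0.042 and 1.25 in WL711, and a difference of 2.05. Ta.10390.2.A1_x_at had 2.58, 2.49 and 2.44 in IITR26 at 14 DAA, against 0.26, -0.077 and 1.22 in WL711, and a difference of 2.04. In both, replicate 3 of WL711 was the high array of its group. Ta.18802.1.S1_at had 1.83, 2.15 and 1.67 in IITR26 at 14 DAA, against -0.19, -0.38 and 0.19 in WL711, and a difference of 2.01. At 28 DAA it had -0.37, 0.20 and -0.78 in IITR26, against 1.78, -0.72 and -0.76 in WL711, so that 1 WL711 array at 28 DAA reached the level of the IITR26 arrays at 14 DAA.

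The course in WL711 divided the members. Its mean at 28 DAA was within 0.5 of that at 14 DAA in 9 of the 16, between 0.5 and 1 higher in 2, between 0.5 and 1 lower in 3, and at least 2 lower in 2, Ta.12587.1.S1_at and RD22. A course found in IITR26 alone therefore describes 14 of the 16 at a bound of 1, of which Ta.10390.2.A1_x_at lay nearest that bound with -0.98 in WL711. No stage before 14 DAA was measured, so the data hold the decline in IITR26 and no earlier rise.

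Among the members, 1 replicate was often the highest of its group. Replicate 3 of WL711 at 14 DAA was the highest of its group in 12 of the 16 members, and replicate 1 of WL711 at 28 DAA in 12 of the 16. In IITR26 replicate 2 was the highest in 8 of the 16 at 14 DAA and in 8 at 28 DAA. The share over all probe sets was not computed, so these counts do not show whether the members differ from other probe sets in this. Over all probe sets, Pearson's r between replicate arrays at 14 DAA was 0.590 to 0.729 for IITR26 and 0.883 to 0.903 for WL711. At 28 DAA it was 0.831 to 0.879 for IITR26 and 0.286 to 0.672 for WL711, where replicate 1 stood apart. Without that array 15 probe sets met the conditions, 14 of them members, and those that left were the amino acid permease and RD22. Of the 16, 8 were kept whichever array was left out, among them the glucan synthase-like, arabinofuranosidase, retrotransposon, kelch repeat and hypothetical protein probe sets and Ta.12587.1.S1_at.

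The values just inside and outside the bounds show how sharp these were. At the 14 DAA bound of 2, Ta.18802.1.S1_at (2.01) and Ta.10390.2.A1_x_at (2.04) lay inside and Ta.10390.1.S1_at (1.91) and Ta.13472.1.S1_at (1.77) outside. At the 28 DAA bound of 1, RD22 (0.95) and TaAffx.55554.2.A1_at (-0.93) lay inside, and 2 probe sets annotated as histone H2B, Ta.7378.17.S1_x_at (-1.17) and Ta.7378.1.S1_at (-1.34), outside. At the bound for the decline in IITR26, Ta.25560.1.S1_at (-2.07) and TaAffx.12176.1.S1_at (-2.18) lay inside, and Ta.6493.2.S1_at (-1.93) and the disease resistance protein rga4, Ta.22179.1.A1_at (-1.90), outside. At the bound for the rise in WL711, Ta.25560.1.S1_at (0.64) and Ta.4199.1.S1_a_at (0.58) lay inside, and only the ABA related probe set Ta.10310.3.S1_at (1.94) was kept out by this bound alone.

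In the deposited scaling the members were a small share of the early differences. In 395 probe sets IITR26 was higher by 2 or more at 14 DAA with no overlap, and in 167 of these the genotypes were within 1 of each other at 28 DAA. In 133 of the 167 the IITR26 mean did not go down by more than 1, with a median change of 1.33 in IITR26 and 3.86 in WL711. A further 17 were lower by 1 to 2 in IITR26, 1 was lower by over 2 in IITR26 and higher by over 1 in WL711, and 16 were the members. In this scaling most closed differences were thus ones in which WL711 came up to IITR26, and the members are those in which IITR26 came down. A quantile normalization of the centred values, repeated after that of RMA, gave another split. By construction it gives every array the same spread. It gave 147 closed differences, only 61 of them among the 167, and 68 of the 147 met the conditions of the members. The spread of centred values can hold real differences between groups as well as scaling, so this step cannot decide between the splits.

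**Figure D2:**
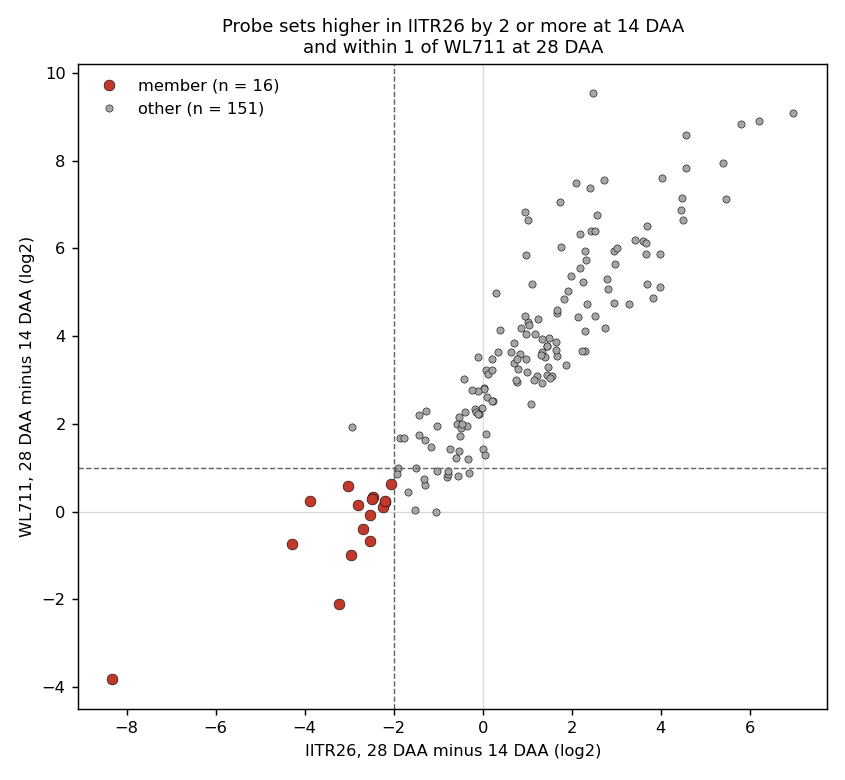
Change between the stages, 28 DAA minus 14 DAA on the log2 scale, in IITR26 (x axis) and WL711 (y axis) for the 167 probe sets that were higher in IITR26 by 2 or more at 14 DAA and within 1 at 28 DAA. The 16 members (red) lie left of the dashed line at -2 and below that at 1, with Ta.12587.1.S1_at farthest down at -8.32 and -3.83, while most of the others (grey) lie in the upper right.

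The same conditions with the genotypes exchanged, high in WL711 at 14 DAA and level by 28 DAA, were met by 239 probe sets. Their median 14 DAA difference was -3.06, and the median change in WL711 was -3.84. In 38 of the 239, IITR26 was also lower by 2 or more at 28 DAA. The counts of 16 and 239 changed under the quantile normalization of the centred values. The centred values spread less on the IITR26 arrays at 14 DAA (SD over probe sets 0.297 to 0.349) than on the other arrays, with SDs of 0.597 to 0.631 for WL711 at 14 DAA, 0.597 to 0.685 for IITR26 at 28 DAA and 0.373 to 0.419 for WL711 at 28 DAA. The quantile normalization gave the 68 probe sets named above, 15 of the 16 members among them, and 117 for the exchanged genotypes. Under it the members' 14 DAA differences ran from 3.38 to 7.13.

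The fit across all probe sets gives the background for the lists and neighbours below. With limma, a probe set counted as called where its log2 difference reached 2 and its adjusted p did not exceed 0.01. At 14 DAA, 364 probe sets were called higher in IITR26, 0.595% of all, and 472 lower, 0.772%. At 28 DAA, 346 were higher, 0.566%, and 492 lower, 0.804%. Between the stages 812 were higher at 28 DAA in IITR26, 1.33%, and 973 lower, 1.59%, and in WL711 586 were higher, 0.958%, and 819 lower, 1.34%. Of the 16 members, 14 were past these limits at 14 DAA, 0 at 28 DAA, 15 for the decline in IITR26 and 2 for that in WL711, and since the choice of members used these same differences nothing is read from these counts.

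Probe sets were built from sequence clusters, and those that share a cluster number cover the same or closely related transcripts. For 6 of the 16 members the array holds other probe sets of the same cluster number, 11 in all, that the choice did not use, though they may share probes or transcripts with the members. In 11 of the 11 the mean at 14 DAA was higher in IITR26, in 9 with no overlap between the genotypes, and in 6 by at least 1 on the log2 scale. No share over all probe sets is given beside these counts, so they are a description only. Past the limits were 1 at 14 DAA (0.595% of all probe sets were called higher) and 5 for a decline in IITR26 (1.59%).

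**Figure D3:**
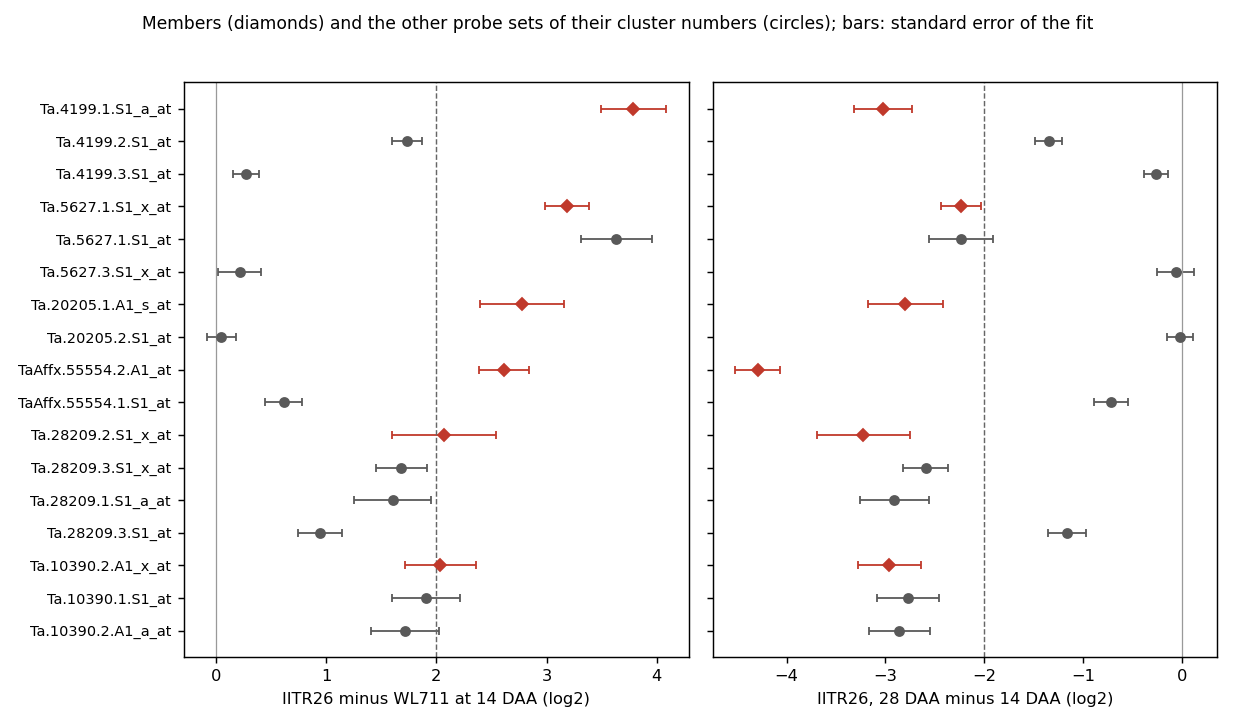
Difference between IITR26 and WL711 at 14 DAA (left) and change in IITR26, 28 DAA minus 14 DAA (right), on the log2 scale, for the 6 members that share a cluster number with other probe sets (red diamonds) and those 11 probe sets (grey circles). Bars are the standard error of the fit and dashed lines the limits of 2 and -2. The probe sets of Ta.10390 lie together, whereas those of Ta.4199 run from 3.79 to 0.27 at 14 DAA.

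The VAMP cluster had the clearest partner, Ta.5627.1.S1_at, whose name differs from the member's only in the x. Both may therefore measure the same transcript, and their r over the 12 arrays was 0.962. Ta.5627.1.S1_at had 3.09, 2.66 and 3.05 in IITR26 at 14 DAA, against -0.71, -1.13 and -0.26 in WL711. Its difference of 3.63 ± 0.32 (SE, n = 3 each) passed the limits (limma, adjusted p = 2.33e-05), and in IITR26 it fell by 2.24 ± 0.32 between the stages (limma, adjusted p = 0.000259). That fall was no longer called without replicate 3 of IITR26 at 28 DAA. At 28 DAA it was still higher in IITR26 by 1.44 (limma, adjusted p = 0.00884), under the limit of 2 and over the bound of 1. Ta.5627.3.S1_x_at of the same cluster number had a 14 DAA difference of 0.21 ± 0.19, with overlapping groups.

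In the RD22 cluster Ta.28209.1.S1_a_at and Ta.28209.3.S1_x_at both fell in IITR26, by 2.91 ± 0.35 (limma, adjusted p = 6.89e-05) and by 2.59 ± 0.23 (adjusted p = 7.12e-06). Their 14 DAA differences were 1.60 ± 0.35 and 1.68 ± 0.23, under the limit of 2. The cluster Ta.10390, of no stated function, was alike in its parts. Of these, Ta.10390.2.A1_a_at differs in name from the member only in its suffix and may measure the same transcript. Ta.10390.1.S1_at fell in IITR26 by 2.77 ± 0.31 and Ta.10390.2.A1_a_at by 2.86 ± 0.31 (limma, adjusted p = 4.17e-05 and 2.95e-05), with 14 DAA differences of 1.91 and 1.72. Both also had lower means at 28 DAA in WL711, with changes of -1.22 (adjusted p = 0.0153) and -1.56 (adjusted p = 0.00341), neither past the limits, and the member Ta.10390.2.A1_x_at had -0.98 there, just within the bound of 1.

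The arabinofuranosidase cluster was less even. Ta.4199.2.S1_at had 1.43, 1.54 and 1.83 in IITR26 at 14 DAA, against -0.12, -0.19 and -0.088 in WL711, a difference of 1.73 ± 0.14 that passed the p and not the size (limma, adjusted p = 1.05e-05). Ta.4199.3.S1_at had a difference of only 0.27 ± 0.12 (adjusted p = 0.186). The partner of Ta.20205.1.A1_s_at, Ta.20205.2.S1_at, had a difference of 0.049 ± 0.13 with overlapping groups, and TaAffx.55554.1.S1_at, the partner of TaAffx.55554.2.A1_at, had one of 0.61 ± 0.17 (adjusted p = 0.0353).

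Probe sets of related function were grouped from the study's annotation and the gene table. All but 1 of those described here come from the study's annotation, which covers probe sets that it picked on these arrays, so their shares are not independent evidence of a direction. Of the callose and cell wall list, which takes in glucan synthases, glucanases, glucosidases, arabinofuranosidases and xyloglucan enzymes, 14 probe sets were measured, 2 of them members. At 14 DAA 2 of the 14 were called higher in IITR26 (0.595% of all probe sets), both of them members, and 10 were called lower (0.772%), with a list median of -2.40 against 0.0098 over all probe sets. In IITR26 8 fell between the stages (1.59% of all probe sets), the 2 members among them, with a median of -2.15. In WL711 9 fell (1.34%), with a median of -2.37. The quantile normalization left 4 of the 10 lower calls at 14 DAA.

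**Figure D4:**
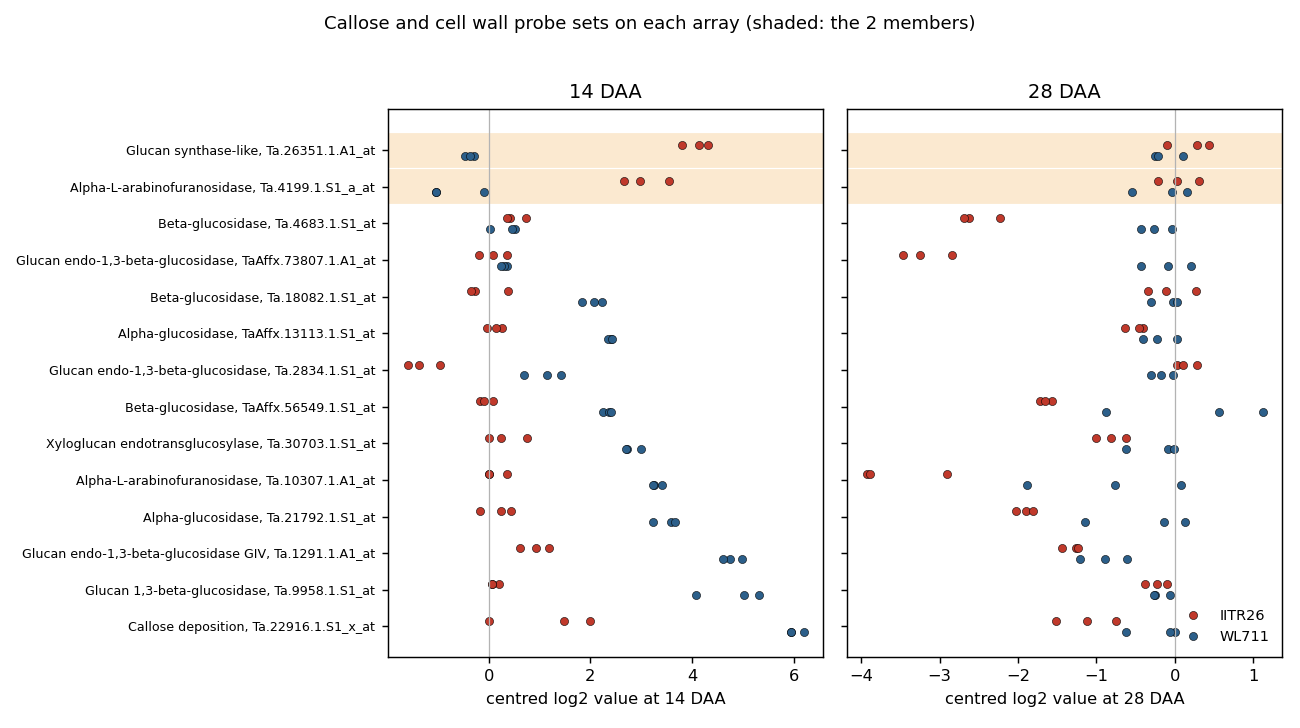
Centred log2 values (x axis) of the 14 callose and cell wall probe sets on each array at 14 DAA (left) and 28 DAA (right), with IITR26 in red and WL711 in blue and each row a probe set. In the shaded rows, the 2 members, the IITR26 arrays lie to the right at 14 DAA, whereas in 10 of the other rows they lie to the left of the WL711 arrays with called differences.

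Both members thus ran opposite to most of this list at 14 DAA. Key words chose the list, which mixes a synthase with enzymes that break glucans down, so this is no contrast within a single function. Its alpha-glucosidases, whose names state no part in callose or cell walls, were among the lower calls. Their differences were -3.34 for Ta.21792.1.S1_at and -2.27 for TaAffx.13113.1.S1_at. A second alpha-L-arabinofuranosidase, Ta.10307.1.A1_at, had 0.00067, 0.35 and -0.00067 in IITR26 at 14 DAA, against 3.26, 3.42 and 3.23 in WL711. It was lower in IITR26, with a difference of -3.18 (limma, adjusted p = 0.000353) and fell in both genotypes, with changes of -3.69 in IITR26 and -4.16 in WL711. The probe set annotated for callose deposition, Ta.22916.1.S1_x_at, had 1.49, 1.99 and -0.00082 in IITR26 at 14 DAA, against 5.96, 6.19 and 5.94 in WL711. Its difference of -4.87 (adjusted p = 1.41e-05) was opposite in sign to the 4.46 of the glucan synthase-like member, and it was not called after the quantile normalization. Of the enzymes that break down such glucans, Ta.9958.1.S1_at, a glucan 1,3-beta-glucosidase, was lower in IITR26 with a difference of -4.69 (adjusted p = 3.24e-07), and Ta.1291.1.A1_at, a glucan endo-1,3-beta-glucosidase, with one of -3.86 (adjusted p = 1.13e-07, not called after the quantile normalization).

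The ABA and desiccation list held 13 probe sets, with RD22 as its 1 member. At 14 DAA 7 were called higher in IITR26 (0.595% of all probe sets) and 2 lower (0.772%), with a median of 2.46. More of them went the other way from RD22 after that. In IITR26 6 rose between the stages (1.33% of all probe sets) and 2 fell (1.59%), with a median of 1.98. In WL711 8 rose (0.958%) and 1 fell (1.34%), with a median of 2.72. The lea protein 12 probe set Ta.12657.1.S1_at, of the late embryogenesis abundant proteins that protect drying cells, had -1.88, -1.64 and -0.64 in IITR26 at 14 DAA, against -5.33, -5.43 and -5.28 in WL711. It rose in IITR26 by 3.51 (limma, adjusted p = 3.68e-06). The other decline was that of the ABA related probe set Ta.10310.3.S1_at, with 3.06, 3.61 and 3.46 in IITR26 at 14 DAA, against -2.30, -3.08 and -1.79 in WL711. It was higher in IITR26 by 5.77 (adjusted p = 2.61e-07) and fell there by 2.93 (adjusted p = 1.59e-05). In WL711 it came up by 1.94 (adjusted p = 0.000527), under the limit of 2. The quantile normalization left 4 of the 7 higher calls.

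Of 6 aquaporins and amino acid transporters, 1 was the permease among the members. At 14 DAA 3 of the 6 were called higher in IITR26 (0.595% of all probe sets) and 2 lower (0.772%). The permease, chosen for that difference, is 1 of the 3. The transmembrane amino acid transporter Ta.27916.1.A1_x_at had -0.67, -0.23 and -0.85 in IITR26 at 14 DAA, against 3.10, 2.76 and 2.62 in WL711. It was lower in IITR26, with a difference of -3.41 (limma, adjusted p = 3.06e-06), the opposite direction to the permease, and fell by 2.98 in WL711 (adjusted p = 3.56e-06). Another, the amino acid transporter TaAffx.128497.1.S1_at, had a 14 DAA difference of 0.56 and was higher in IITR26 by 2.28 at 28 DAA (adjusted p = 2.15e-06). The call of the aquaporin PIP1, Ta.2895.1.S1_x_at (3.41, adjusted p = 0.00348), was lost without any 1 of the 6 arrays at 14 DAA and after the quantile normalization. Without any of those arrays, 1 probe set of the list was called higher in IITR26 at 14 DAA in place of 3.

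Of 5 retrotransposon probe sets, 1 was a member. At 14 DAA 2 of the 5 were called higher in IITR26 (0.595% of all probe sets) and 2 lower (0.772%). The member, chosen for that difference, is 1 of the 2 higher, and the gag protein TaAffx.118872.1.S1_x_at was higher in IITR26 by 2.34 (limma, adjusted p = 3.25e-05), and its change in IITR26, -0.72, was not called. Ta.28370.1.S1_at was lower in IITR26 with a difference of -2.75 (adjusted p = 3.25e-05, not called after the quantile normalization) and Ta.3209.2.S1_x_at with one of -2.68 (adjusted p = 3.83e-06). The gag protein also had a 28 DAA difference of only 0.18, with overlapping groups, so it was high at 14 DAA in IITR26 and level at 28 DAA as the member was. It is no member because its decline in IITR26 was under 2 and its mean in WL711 came up by 1.43.

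List means of grain tissue markers differed between the genotypes at 14 DAA, and 0 members were in any of the marker lists. All these markers come from the study's annotation, which covers probe sets that it picked on these arrays for a difference between the genotypes. Their differences are therefore largely set by that choice and are not independent evidence. The 9 green pericarp probe sets had array means of 0.50 to 0.89 in IITR26 at 14 DAA, against 2.57 to 2.98 in WL711, and the 6 embryo probe sets had -1.34 to -0.68 in IITR26, against -2.79 to -2.32 in WL711. The 4 endosperm probe sets had -0.33 to -0.038 in IITR26 at 14 DAA, against -3.56 to -3.32 in WL711, the 2 of endosperm transfer cells had -0.037 to 0.55 in IITR26, against 0.82 to 1.07 in WL711, and the 1 of aleurone had -0.64 to -0.15 in IITR26, against -2.75 to -2.16 in WL711. Neither of the 2 transfer cell probe sets was called at 14 DAA, with differences of -0.17 and -1.25. The list means also hide markers that ran the other way. The avenin-like Ta.27712.1.S1_at of the endosperm list averaged -1.73 in IITR26 at 14 DAA, against 1.85 in WL711, a difference of -3.58 (limma, adjusted p = 1.75e-07), while the other 3 of that list were called higher. The late embryogenesis abundant group 1 probe set Ta.13165.2.S1_at of the embryo list had a difference of -3.74 (adjusted p = 2.05e-07), while 4 of its 6 were called higher. At 28 DAA the embryo probe sets stood at 2.17 to 2.68 in IITR26, against 0.71 to 1.04 in WL711. In 4 of the 5 lists another group lay wholly above IITR26 at 14 DAA. In the endosperm list IITR26 at 28 DAA, at -0.85 to -0.10, and WL711 at 28 DAA, at -2.25 to 0.71, both overlapped it. The part of tissue make-up in the members' values was not tested.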

How the data were processed

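The values analysed were the deposited log2 values of 12 arrays. The authors used GeneSpring GX and RMA to normalize the scans. Each probe set is also centred on its median over the arrays, a shift absent from the methods. Arrays were grouped by the genotype and stage in their labels. Without 111 Affymetrix controls, 61179 probe sets were used. Differences between group means were computed in R 4.3.3, and limma 3.58.1 (lmFit and eBayes, 4 group means, 8 residual degrees of freedom, Benjamini-Hochberg adjustment over all probe sets) was fitted to all of them, the members included. Members enter the counts of calls, and no p-value is given for them. The procedure was tested on simulated data. The 3 arrays per group limit the precision. Functions came from the study's annotation (579 probe sets) and gene names from the platform annotation, completed from the RefSeq gene table (200 with a name other than a locus number). Probe sets of 1 cluster prefix are not reported here. Every member is described. Of each function list that holds a member, up to 4 probe sets called at 14 DAA are named among those with the largest differences, and others named, among them TaAffx.128497.1.S1_at and the cluster partners, were chosen after their values were seen. The members and lists were chosen with earlier results of these data known. Alternatives were other scalings, filters, bounds and thresholds, the replicate number as a block, the methods' t-test, group medians and the omission of each array.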

Additional observations from a re-analysis of the deposited data

How the results depend on the processing

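The count of 16 members was 16 after alignment of array medians, 11 without probe sets open to cross-hybridization (suffix x, s or a), 14 with the change in WL711 kept between -1 and 1 and 19 from group medians. It was 68 after the quantile normalization, which acts on centred values and evens out the spread of the arrays by its construction, 7 among probe sets with a coefficient of variation under 50% in every group, 31 at bounds of 1.5 and 7 at bounds of 2.5. Leaving out 1 array gave 12 to 20. The 167 closed differences became 103 without suffixes x, s or a, 85 with the variation filter, 147 after quantile normalization with 61 shared, 339 at 1.5 and 89 at 2.5, and 147 to 191 with 1 array left out. The 239 probe sets of the exchanged genotypes became 117 after quantile normalization, 391 at 1.5 and 158 with the change in IITR26 between -1 and 1, and 217 to 256 with 1 array left out. All 16 members kept the sign of their 14 DAA difference and of their change in IITR26 under both scalings and every omission. The members were chosen with no overlap at 14 DAA, so omitting 1 array could not turn the sign of that difference. Nothing is read from the kept signs.

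Calls over all probe sets numbered 836 at 14 DAA, 838 at 28 DAA, 1785 for the change in IITR26 and 1405 for that in WL711. At a log2 difference of 1 they were 2420, 3201, 5852 and 4184, and with the methods' t-test, adjusted, 219, 1, 731 and 444. The 28 DAA calls were 482 after quantile normalization. Without suffixes x, s or a, 553, 1130 and 890 remained at 28 DAA, in IITR26 and in WL711, and the variation filter left 504 at 14 DAA, in each case among fewer probe sets tested. With 1 array left out the counts were 660 to 774, 744 to 1099, 1679 to 1913 and 1329 to 1516. For the other moves the cause was not tested. Same-numbered arrays of different groups had r of -0.065 to 0.19 between their deviations from the group means, with a median of 0.050 over 18 pairs. Of these, 2 were over 0.1. For arrays of different number r was -0.21 to 0.095, with a median of -0.023 over 36 pairs and 0 over 0.1. These weak values do not settle whether the numbers pair the samples. With the replicate number as a block the calls were 825, 834, 1781 and 1403. In the lists described, leaving out suffixes x, s and a gave 1 higher cell wall call at 14 DAA, 0 lower transporter calls and 1 retrotransposon call in each direction, and 1 decline in IITR26 in each of the ABA, transporter and retrotransposon lists, against 2 in every one of these counts. Quantile normalization gave 1 lower call at 14 DAA in the transporter and in the retrotransposon list, against 2 in each, and 1 cell wall probe set called higher at 28 DAA in IITR26, against 0.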

Other observations

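Outside the members, 6 probe sets had a Pearson's r of at least 0.95 with the median profile of the 16 members over the 12 arrays. The r is a description over 12 arrays of 4 groups, and the 6 were looked at after their values were seen. The 1 with a stated function was an F-box protein, TaAffx.92919.1.A1_at, from the family of subunits that pick targets for ubiquitin ligases. Its r was 0.956, its 14 DAA difference was 2.12 and its change in IITR26 was -1.52, short of the bound of 2. The highest r, 0.976, was that of TaAffx.109068.1.S1_at, of no stated function, with a 14 DAA difference of 1.36 and a change in IITR26 of -1.37. Of the 6, 5 had a 14 DAA difference of at least 1, so probe sets with the same course and a smaller size lie below the bounds.

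At the other edge lay 2 probe sets annotated as histone H2B, a core histone around which nuclear DNA is wound. Ta.7378.17.S1_x_at was higher in IITR26 by 2.26 at 14 DAA and changed by -3.58 in IITR26 and by -0.14 in WL711 to a 28 DAA difference of -1.17. Ta.7378.1.S1_at had 2.07, -3.23, 0.18 and -1.34 for the same 4 quantities. Without replicate 1 of WL711 at 28 DAA the 28 DAA difference of Ta.7378.1.S1_at was -0.77, and it met all conditions of the members.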
